A study of Mus musculus with 6 samples.

Results

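The Lamp1-enriched cells of bleomycin-injured mouse lung were compared with the Lamp1-depleted cells of the same lungs, as 1 library of RNA sequencing reads against 1 library. All genes with 10 or more reads in either library were taken, which left 21838 of the 49315 genes in the count table, and 12120 of these had 50 or more reads in both libraries. Male C57BL/6J mice (C57BL/6 in the labels) received bleomycin (BLM) or sterile saline (sham) by oropharyngeal instillation, and lungs were taken at day 21. The lungs of mice of the same group were pooled, digested with collagenase, freed of red cells and sorted live with an antibody against Lamp1 at the cell surface. Unsorted BLM cells and the 3 sham libraries (unsorted, Lamp1-depleted and Lamp1-enriched) are given only as values beside the BLM pair. The age of the mice and the number of animals in each pool were not used here, and no group carried a transgene or deletion in the labels.

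Lamp1 is a heavily glycosylated protein of the lysosomal membrane. A small part of it reaches the plasma membrane when lysosomes fuse with it, and more is found there on platelets, on degranulating lymphocytes and, as the study asked, on senescent cells. The question of the sort was therefore which cells of the fibrotic lung carry Lamp1 at the surface. The lung holds a dense capillary bed lined by endothelium, an epithelium of alveolar type 1 and type 2 cells and airway cells, fibroblasts and mural cells, and resident and recruited immune cells. Bleomycin damages the alveolar epithelium and endothelium, after which macrophages gather and fibroblasts deposit collagen.

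Each condition had 1 library, so no difference has a replicate check and no p-value was computed. Levels are read counts brought to a library size of 1000000 with TMM factors (CPM), and a difference is the log2 ratio of Lamp1-enriched over Lamp1-depleted cells, so that 1 is a doubling. The interval beside a ratio is a 95% Clopper-Pearson interval that covers counting error only, not differences between mice. A gene is called higher or lower where the log2 ratio was at least 2 in size, which is 4-fold. In bulk RNA, fewer cells of a type and less RNA per cell cannot be told apart.

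The BLM Lamp1-enriched library held 52918696 counted reads and the BLM Lamp1-depleted library 30236120, against 39609874 to 45090413 in the other 4. A single noncoding gene, Gm26917, took 38.4% of all reads from BLM Lamp1-depleted cells, against 1.53% from BLM Lamp1-enriched cells and at most 7.10% elsewhere. Without it the Lamp1-depleted library held 18636423 reads. The median log2 ratio was 0.29 over all genes tested and 0.11 over genes with 50 or more reads in both, so that a list median is read against these values. In sham the median over all genes tested was -0.013. Other scalings moved every log2 ratio by the same amount, by 0.56 for total counts only, by -0.15 for DESeq2 size factors and by -0.13 with Gm26917 left out of the totals.

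Lamp1 RNA itself was higher in the cells sorted for its protein. Lamp1 lies on chromosome 8 from 13159161 to 13175338 on the plus strand of GRCm38. It had 20594 reads in BLM Lamp1-enriched and 2344 in BLM Lamp1-depleted cells, or 378 and 111 CPM, with 501 CPM in unsorted BLM cells. The log2 ratio was 1.77 (1.71 to 1.83), below the 4-fold rule. Unsorted cells lay above both sorted libraries.

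The promoter of Lamp1 is shown because Lamp1 is the target of the sort and because lysosomal genes are known to share the motif CACGTG, the core of the element read by the transcription factor Tfeb and its relatives. The sequence is from RefSeq on GRCm38.p6, from 250 bases before the start of transcription to the base before it, at chr8:13158911-13159160 on the plus strand. Capitals mark each CACGTG, which reads the same on both strands.
Lamp1: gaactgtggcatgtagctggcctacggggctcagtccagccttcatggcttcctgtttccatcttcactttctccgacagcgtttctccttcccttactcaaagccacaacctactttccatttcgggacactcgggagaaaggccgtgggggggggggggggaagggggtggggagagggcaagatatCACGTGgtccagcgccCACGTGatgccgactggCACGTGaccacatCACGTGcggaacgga

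CACGTG occurs 4 times in this stretch, and only 8 of the 32851 RefSeq promoters (250 bases before to 50 after the start) held it 4 times or more. At least 1 copy was found in 7.15% of all promoters and for 8.09% of the 27025 genes that have one. Among the 49 genes of the lysosomal lists with a promoter in the table, 15 held it (30.6%), as did 1 of 10 T cell genes, 0 of 6 B cell genes and 0 of 11 pan-endothelial genes. Windows on the first copy are shown for the cathepsin with the largest ratio among the carriers (Ctsf), for the galactosidase used as a senescence stain (Glb1), for the cation channel Mcoln1 and for the carrier with the lowest ratio (Cln3).
Ctsf, chr19:4855074-4855103, plus strand: caccccgtggtcCACGTGcctcgcgtaaat
Glb1, chr9:114401018-114401047, plus strand: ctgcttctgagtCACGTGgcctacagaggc
Mcoln1, chr8:3500436-3500465, plus strand: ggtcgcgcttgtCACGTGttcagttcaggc
Cln3, chr7:126583368-126583397, minus strand: gcaaccctcaagCACGTGatggaaggctca

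The ratios of carriers and other genes overlapped over most of their range. The 15 lysosomal genes with CACGTG had a median log2 ratio of 0.65 (range -1.87 to 2.11), and the 33 tested genes without it had a median of 0.50 (-2.53 to 2.80). A match is only a description of the letters in these windows. Tfeb itself had 13.9 and 43.7 CPM (-1.65, -1.79 to -1.51).

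Most lysosomal genes were on the Lamp1-enriched side with Lamp1, but few reached 4-fold. Of 19 lysosomal membrane genes tested, Lamp1 included, 13 had ratios above 0, with a median log2 ratio of 0.45. Of the 19, 3 were at least 4-fold higher and 1 at least 4-fold lower. Over all 21838 genes, 19.2% were called higher and 12% lower. Laptm4a, a transporter-like protein of late endosomes, had 465 CPM in Lamp1-enriched and 66.6 CPM in Lamp1-depleted cells (log2 ratio 2.80, 2.73 to 2.88). Its relative Laptm4b had 43.3 and 7.57 CPM (2.51), and Scarb2, the receptor that carries glucocerebrosidase to lysosomes, had 258 and 58.8 CPM (2.13). Laptm5, the member of the same family known from blood cells, ran the other way, with 127 CPM in Lamp1-enriched and 732 CPM in Lamp1-depleted cells (-2.53). Lamp2, the closest relative of Lamp1, had a log2 ratio of 1.48, and Lamp3, which marks alveolar type 2 cells and mature dendritic cells, of 1.89. Lamp5 had 6 reads in Lamp1-depleted cells and none in Lamp1-enriched cells and was not tested.

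Among 40 lysosomal hydrolases, all with 50 or more reads in both libraries, 28 had ratios above 0. Of the 40, 2 were called higher and none lower, against 10.8% and 8.01% of all genes with 50 or more reads in both. The 2 were Smpd1, acid sphingomyelinase, with a log2 ratio of 2.30 (2.03 to 2.59), and Ctsf, cathepsin F, with 2.11 (1.70 to 2.55). The median of the 40 was 0.47, against 0.11 for all genes with 50 or more reads in both, and -0.16 in sham. The most abundant member, Psap, the precursor of the saposins, had 931 and 882 CPM (0.08), and Glb1, lysosomal beta-galactosidase, had 15.7 and 14.7 CPM (0.09, -0.09 to 0.29). Cathepsin S (Ctss), an enzyme of antigen-presenting cells, had 285 and 271 CPM in BLM (0.08) and 43.8 and 305 CPM in sham (-2.80). Ctsh and Acp5 were lower, with log2 ratios of -1.83 and -1.19. Unsorted BLM cells had more than 2 times the level of either sorted library for 20 of these 40 genes, among them Psap with 5278 CPM and Ctsd with 2733 CPM, a position held by 5.82% of all tested genes.

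**Figure D1:**
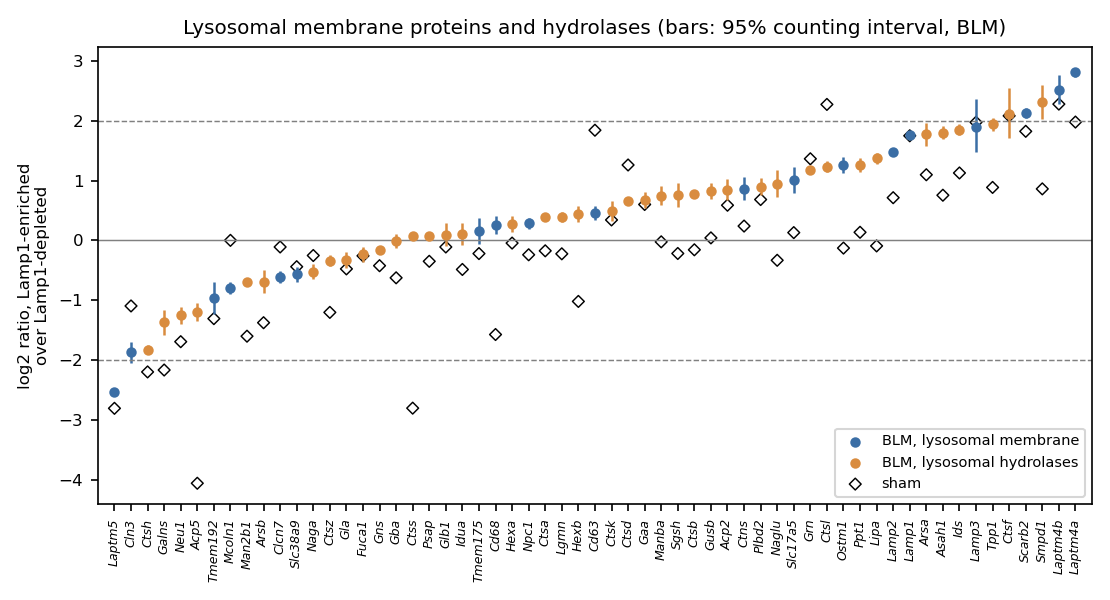
Log2 ratio of Lamp1-enriched over Lamp1-depleted cells for the 19 lysosomal membrane genes (blue) and 40 lysosomal hydrolases (orange) tested, ordered by the BLM ratio, with 95% counting intervals as bars, sham ratios as open diamonds and the 4-fold rule dashed. Most genes lie between -2 and 2, and Laptm4a at 2.80 and Laptm5 at -2.53 are the ends of the range.

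Among the 12120 genes with 50 or more reads in both libraries, 1311 (10.8%) were at least 4-fold higher and 971 (8.01%) at least 4-fold lower in Lamp1-enriched cells. The numbers were 2117 and 599 with total counts only, 1167 and 1087 with Gm26917 left out of the totals and 1146 and 1116 with DESeq2 size factors. Their 25th and 75th percentiles were log2 ratios of -0.79 and 1.04. The 15 protein-coding genes with the largest ratios in each direction were taken from these. The highest was Slc6a2, the noradrenaline transporter, on chromosome 8 from 92960079 to 93001667. It had 17641 reads against 135, or 324 CPM in Lamp1-enriched, 6.39 CPM in Lamp1-depleted and 66.3 CPM in unsorted BLM cells, a log2 ratio of 5.66 (5.42 to 5.92).

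Calcrl, the receptor shared by adrenomedullin and the calcitonin gene-related peptide, was the most abundant protein-coding nuclear gene of the Lamp1-enriched library, with 0.905% of all its reads. It had 8789 CPM in Lamp1-enriched and 251 CPM in Lamp1-depleted cells, a log2 ratio of 5.13 (5.09 to 5.17). Next to it stood Ackr3, a scavenging receptor for Cxcl12, with a log2 ratio of 5.21, and Adgrl4, an endothelial adhesion receptor, with 5.01. Clca3a1 (4.99), Jam2 (4.93), Sema3c (4.89), Clec14a (4.81), Lyve1 (4.80), Lepr (4.80), Cav2 (4.72), Npr3 (4.68), Tmem47 (4.65), Cd36 (4.60) and Pdgfd (4.59) made up the rest. Jam2 is a tight junction protein, Clec14a an endothelial lectin-like receptor, Npr3 the clearance receptor for natriuretic peptides and Cd36 a fatty acid transporter of capillaries. All 15 also had sham ratios above 3, from 3.07 for Tmem47 to 4.96 for Slc6a2.

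The lowest of the 12120 among protein-coding genes was Jakmip1, which encodes a protein that binds Janus kinases and microtubules, with 74 reads against 1467 (1.36 and 69.4 CPM, log2 ratio -5.66, -6.03 to -5.34). Lck, the kinase of the T cell receptor, had 4.11 and 160 CPM (-5.28). Lat, the adaptor that Lck signalling reaches (-5.17), stood beside it, as did Il2rb, the shared chain of the interleukin-2 and interleukin-15 receptors (-5.20). Blk, a B cell kinase, had 4.68 and 195 CPM (-5.38), and Ikzf3, a lymphocyte transcription factor, had 9.67 and 391 CPM (-5.34). Dtx1 (-5.45), Gimap3 (-5.38), Ccdc88c (-5.34), Scml4 (-5.32), Cacna1i (-5.26), Sidt1 (-5.24), Traf3ip3 (-5.19) and Lax1 (-5.16) were also among the 15. The sham ratios of the genes named here ran from -3.01 for Lat to -4.37 for Lck.

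**Figure D2:**
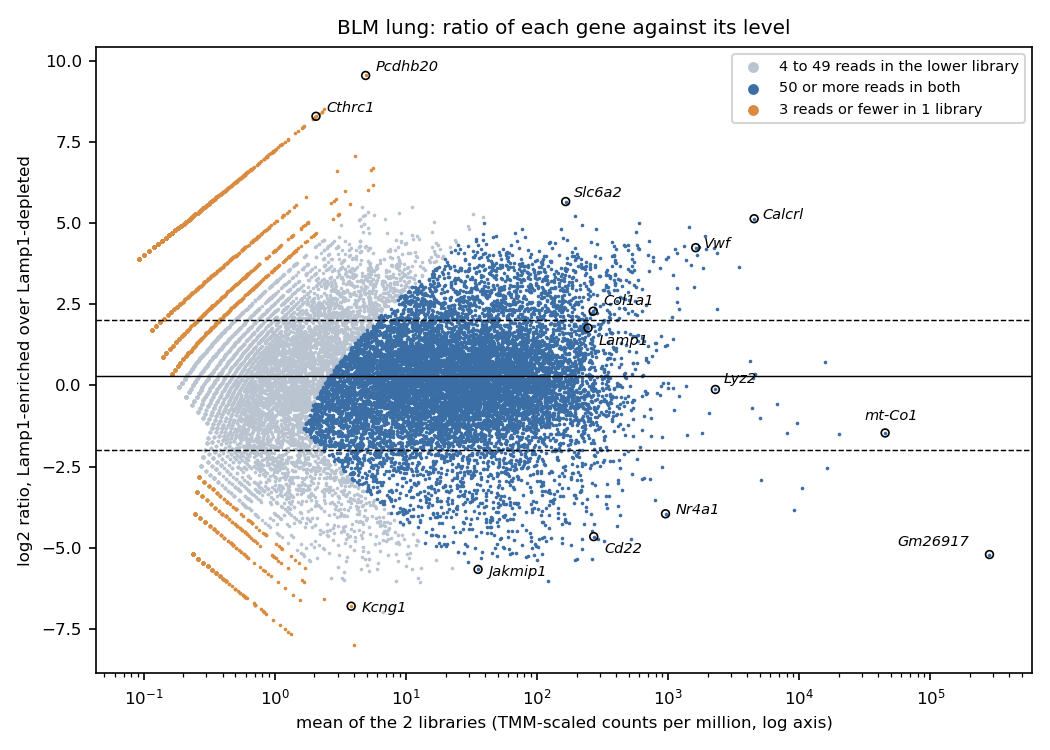
Log2 ratio of Lamp1-enriched over Lamp1-depleted BLM cells against the mean level of the 2 libraries in TMM-scaled CPM (log axis), 1 point per gene for 21838 genes. Blue points have 50 or more reads in both libraries and orange points 3 reads or fewer in 1, with the rest in grey. The dashed lines mark the 4-fold rule and the solid line the median of 0.29, with Slc6a2 at 5.66 and Calcrl at 5.13 above and Gm26917 at -5.21 far to the right.

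Endothelial genes were the main group on the Lamp1-enriched side. Of 20 genes used across all endothelium, 19 were at least 4-fold higher and all had 50 or more reads in both libraries, with a median log2 ratio of 3.68 in BLM and 3.11 in sham. Cdh5, the cadherin of endothelial junctions, had 2766 CPM in Lamp1-enriched and 211 CPM in Lamp1-depleted cells (3.71), and Ptprb, its associated phosphatase, had 4217 and 225 CPM (4.23). Pecam1, the endothelial Cd31, had 2010 and 340 CPM (2.56). The gene that did not reach 4-fold was S1pr1, a receptor for sphingosine-1-phosphate that lymphocytes also use, with 713 and 229 CPM (1.64).

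The endothelial subtypes did not move to the same extent. All 8 genes of general capillary cells were called higher, with a median of 4.08 and a narrow range from 3.75 for Gpihbp1, the anchor of lipoprotein lipase, to 4.89 for Sema3c. The receptor Kit had 1110 and 59.2 CPM (4.23). All 7 genes of aerocytes, the large capillary cells of gas exchange, were also called higher, but with a median of 2.42, and none of them reached the lowest value of the general capillary genes. Prx, the list's gene with the most reads, had 567 and 114 CPM (2.32). Car4, the carbonic anhydrase that marks aerocytes, had 96.2 and 21.7 CPM (2.15), and the endothelin receptor Ednrb had 142 and 14.5 CPM (3.29). In sham the medians were 3.32 and 2.57.

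Arterial and venous genes lay near the general endothelial value. Of 10 arterial genes 9 were called higher (median 3.60), led by Gja4 (4.53) and Gja5 (4.21), the connexins of arterial gap junctions. Gja5 had 103 CPM in Lamp1-enriched and 5.59 CPM in Lamp1-depleted cells, and Cxcl12, the most abundant member, had 1820 and 124 CPM (3.88). Bmx, an arterial kinase, had 546 and 83 reads (1.35). All 8 venous genes were called higher (median 3.62), from Vcam1, an adhesion molecule for leukocytes, at 2.76 to Slc6a2. Vwf, the von Willebrand factor, had 3077 and 163 CPM (4.24), and the protease Prss23 had 63.4 and 1.61 CPM (5.29).

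Genes of lymphatic endothelium split. Lyve1, a hyaluronan receptor, had 292 and 10.5 CPM (4.80), and Flt4, the receptor for Vegfc, had 88.8 and 12.3 CPM (2.85). Both are also known from blood endothelium of the lung. Prox1, the transcription factor that defines the lymphatic lineage, had 2.16 and 3.22 CPM (-0.57, -1.01 to -0.12), and unsorted cells had 13.1 CPM. The 7 genes tested had a median of -0.13, which was 0.43 with total counts only and 0.59 with the Lamp1-enriched library thinned to the depth of the other. Ccl21a had no read in either library.

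Pathways that work in endothelium followed the same direction. Some of their genes, such as Tek, Flt1, Dll4 and Hey1, are also in the endothelial lists above, so the pathway lists are not independent of them. Of 14 genes of vascular tone 12 were called higher (median 3.13), among them Ace, the angiotensin-converting enzyme (3426 and 281 CPM, 3.61), and Edn1, the vasoconstrictor endothelin-1 (134 and 6.20 CPM, 4.43). Adora2a, an adenosine receptor, went the other way at -0.67. Of 16 genes of the BMP pathway 12 were called higher (median 2.74). Bmpr2, the receptor mutated in heritable pulmonary hypertension, had 4437 and 263 CPM (4.07), its ligand gene Bmp4 had a log2 ratio of 4.69 on 750 and 11 reads, and the target Id1 had 75.9 and 8.47 CPM (3.16).

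Ligands and receptors of VEGF and angiopoietin signalling gave 9 higher of 15 (median 2.69), with Vegfc at 4.31, Tek, the angiopoietin receptor, at 4.03 and Vegfa at 2.23. Flt1, a VEGF receptor and the member with the most reads, had 1027 and 73.8 CPM (3.80), and Angpt2, which opposes the angiopoietin receptor, had a log2 ratio of 0.70. In the Notch pathway 9 of 14 were called higher (median 2.56), led by the ligand Dll4 (139 and 10.4 CPM, 3.74) and the target Hey1 (3.27). Notch2 was called lower, with 103 and 530 CPM (-2.36), whereas Notch1 (1.96) and Notch4 (2.95) were on the Lamp1-enriched side. Notch2 is the receptor that marginal zone B cells depend on.

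Caveolae, the membrane pits of capillary endothelium, had 8 of 10 genes higher with a median of 3.70. Cav1, their coat protein, had 2502 and 128 CPM (4.29). Mfsd2a, which limits transcytosis in the brain, had 10 and 11 reads. In coagulation and fibrinolysis 5 of 14 were called higher and 1 lower (median 1.86). Thbd, the thrombin receptor that activates protein C, had 2552 and 175 CPM (3.87), Plat, tissue plasminogen activator, had a log2 ratio of 3.96, and the coagulation factor F10 had -2.20.

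**Figure D3:**
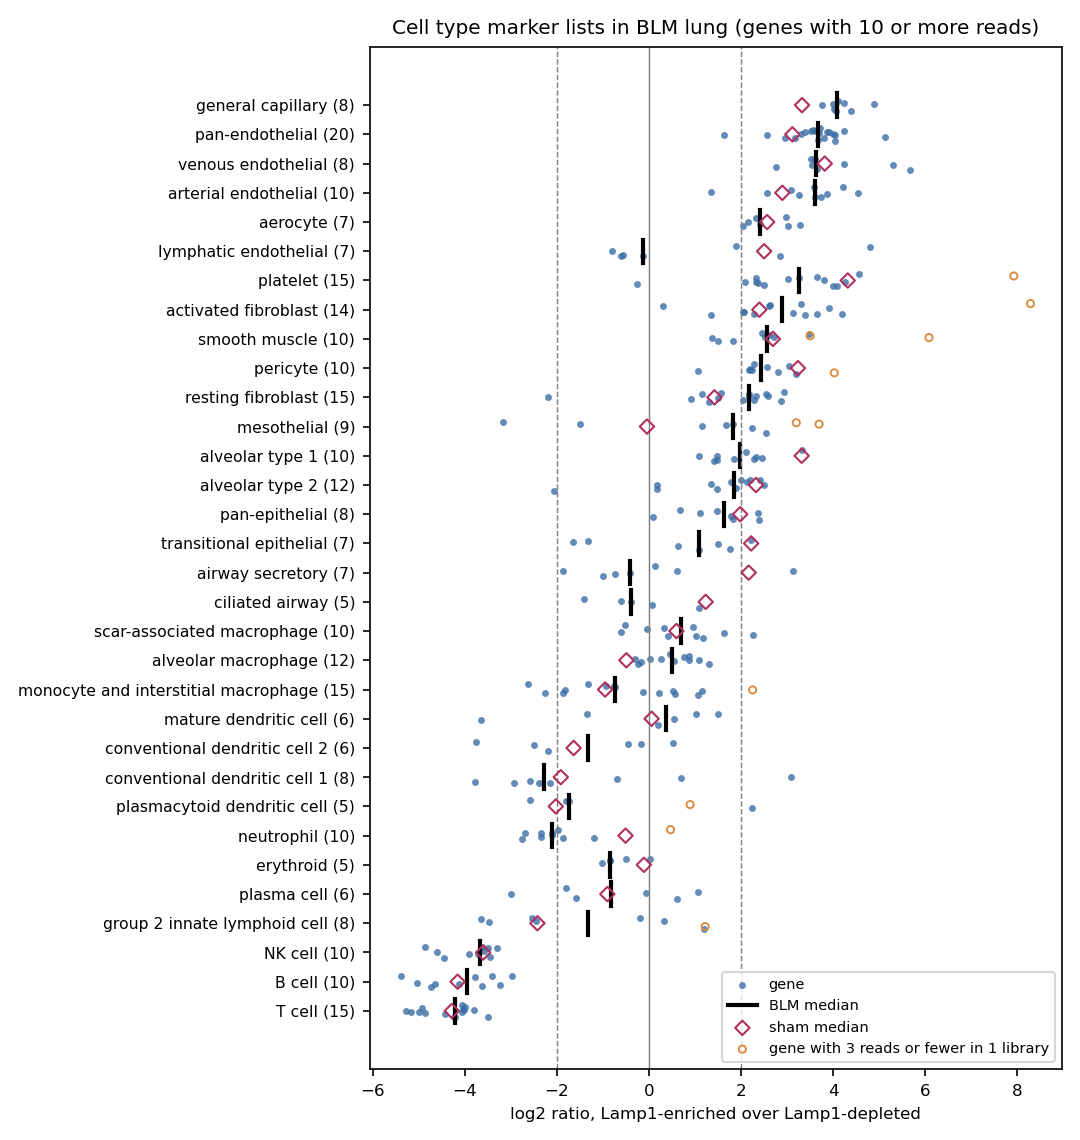
Log2 ratio of each marker gene by list in BLM, with the number of genes tested in brackets. Black bars are BLM medians, open diamonds sham medians, open circles genes with 3 reads or fewer in 1 library, and dashed lines the 4-fold rule. Vascular lists lie on the right up to a median of 4.08 for general capillary genes and T, B and NK cell genes on the left down to -4.22 for T cells.

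Platelet genes went with the Lamp1-enriched cells at low levels. Of 15 genes 14 were called higher (median 3.26 in BLM and 4.32 in sham), but only 4 had 50 or more reads in both libraries. Ppbp, a chemokine of platelet granules, had 88.7 and 3.74 CPM (4.56). Itgb3, the integrin chain that endothelium and macrophages also carry, had 2427 and 1120 reads (-0.25). The summed level of the list was 280 CPM in Lamp1-enriched, 76.0 CPM in Lamp1-depleted and 141 CPM in unsorted BLM cells, against 1550 CPM in sham Lamp1-enriched cells.

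Mesenchymal genes were higher in Lamp1-enriched cells, though less so than pan-endothelial, general capillary, arterial and venous genes. Of 15 genes of resting fibroblasts 9 were called higher and 1 lower (median 2.16). Pdgfra, the receptor that marks lung fibroblasts, had 39.9 and 8.90 CPM (2.16), and Dcn, the proteoglycan decorin, had 30.3 and 5.21 CPM (2.54, against 0.41 in sham). Col3a1, a chain of collagen III, had 222 and 37.1 CPM (2.58). Pi16, which marks adventitial fibroblasts, ran the other way with 4.16 and 19.1 CPM (-2.19, -2.44 to -1.96).

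Genes of activated fibroblasts gave 12 higher of 14 (median 2.88), with 6 of these 12 above 50 reads in both libraries. Tnc, the matrix protein tenascin-C, had 53.4 CPM in Lamp1-enriched and 5.11 CPM in Lamp1-depleted cells (3.38, 3.11 to 3.67), against 2.85 and 0.921 CPM in sham. Col1a1, the main chain of collagen I, had 444 and 91.1 CPM (2.28), and 415 CPM in unsorted BLM cells. Sfrp1, a secreted Wnt antagonist, had 855 and 18 reads (4.18, 3.53 to 4.96). Cthrc1, the marker of collagen-producing fibroblasts in fibrosis, had 224 reads in Lamp1-enriched and none in Lamp1-depleted cells, which is at least 28.9-fold higher against a floor of 3 reads. Fap (1.35) and Adam12 (0.31) stayed below 4-fold.

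Contractile and mural genes lay in the same range. Of 10 smooth muscle genes 7 were called higher (median 2.56), with Mylk, myosin light chain kinase, at 2.71 on the most reads and Acta2, smooth muscle actin, at 32.4 and 5.63 CPM (2.52). Of 10 pericyte genes 9 were called higher (median 2.43), with Rgs5 at 49.4 and 5.96 CPM (3.05) and Pdgfrb at 33.2 and 7.01 CPM (2.24). Gucy1a1, a subunit of the nitric oxide receptor, had the most reads of the pericyte list, at 70.2 and 14.3 CPM (2.29). The mesothelial list had no gene with 50 reads in both libraries. Its 9 genes had a median of 1.83 with Wt1, the mesothelial transcription factor, at 6 and 23 reads, and all 9 were highest in unsorted cells.

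Matrix genes were mostly higher in Lamp1-enriched cells. Of 14 basement membrane genes 13 were called higher (median 2.98). Col4a1, the main chain of collagen IV, had 1979 CPM in Lamp1-enriched and 188 CPM in Lamp1-depleted cells (3.40), with 513 CPM in sham Lamp1-enriched cells. Among 40 collagen chain genes 21 were called higher and 2 lower (median 2.19, or 2.07 with Col9a2, which had no read in Lamp1-depleted cells, set at its bound). The chains lower were Col11a2 (-3.04) and Col2a1 (-2.11, 9 and 16 reads). Of 13 genes of elastic fibres and crosslinking 10 were called higher (median 2.58), with Loxl2, a lysyl oxidase, at 4.43 and Eln, elastin, at 2.38. Tgm2, a transglutaminase with the most reads of this list, had 453 and 135 CPM (1.74).

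The TGF-beta pathway, which drives collagen production, was mixed. Of 18 genes, all above 50 reads in both libraries, 8 were called higher and 1 lower (median 0.84). Among those higher were Ltbp1 (161 and 8.95 CPM, 4.17), Ltbp2, Ltbp3 and Ltbp4, which hold latent TGF-beta in the matrix, and Tgfb2 (17.1 and 2.46 CPM, 2.79), the coreceptor Tgfbr3 and the integrin chain Itgb6. Tgfbr2, the type II receptor, had 367 and 199 CPM (0.89). Tgfb1, the main ligand in fibrosis, had 118 and 192 CPM (-0.69, -0.75 to -0.64), and the signal transducer Smad3 was called lower with 16.2 and 67.0 CPM (-2.05). With total counts only the ratio of Tgfb1 would be nearer 0 by 0.56.

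Alveolar epithelial genes were moderately higher in Lamp1-enriched cells. Of 12 type 2 genes 5 were called higher and 1 lower (median 1.84). Sftpc, surfactant protein C, had 104 CPM in Lamp1-enriched, 22.9 CPM in Lamp1-depleted and 98.9 CPM in unsorted BLM cells (2.19), against 585 CPM in sham Lamp1-enriched cells. Abca3, the lipid transporter of lamellar bodies, had 101 and 89.1 CPM (0.18). Napsa, a protease of surfactant processing, had 16.2 and 67.4 CPM (-2.06), and in sham -2.69. Of 10 type 1 genes 5 were called higher (median 1.97 in BLM and 3.32 in sham). Cldn18, the claudin of type 1 junctions with the most reads of the list, had a log2 ratio of 2.33, and Ager, the receptor for glycation products, had 46.4 and 12.9 CPM (1.84, and 3.41 in sham).

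All 8 general epithelial genes had ratios above 0 (median 1.62), with a summed level of 50.3 and 26.1 CPM. The claudins Cldn7 (112 and 8 reads, 2.40) and Cldn3 (70 and 5 reads, 2.38) were called higher. Cdh1, E-cadherin, had 25.6 and 15.9 CPM (0.68). Epcam, the epithelial adhesion molecule, had 151 and 55 reads (0.09, -0.36 to 0.56). Of 7 genes of transitional epithelium, the state between type 2 and type 1 cells in injury, 1 was called higher, Itgb6 at 2.22. Krt7, a keratin, had 889 and 161 reads (1.10). The growth factor Areg (-1.66) and Sfn (-1.32) were on the other side.

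Airway genes had another direction in BLM than in sham for Scgb1a1. Scgb1a1, the secretory protein of club cells, had 23.9 CPM in Lamp1-enriched and 47.5 CPM in Lamp1-depleted BLM cells (-0.99, -1.11 to -0.87), and 61.8 and 13.8 CPM in sham (2.17). The 7 secretory airway genes tested had a median of -0.41 in BLM, which was 0.15 with total counts only, and of 2.17 in sham. Scgb3a1 was called higher on 343 and 15 reads (3.12). Of 5 ciliated cell genes tested none was called, with a median of -0.38 that was 0.17 with total counts only.

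The T, B and NK cell lists were called lower throughout. All 15 T cell genes were at least 4-fold lower in Lamp1-enriched cells, 12 of them with 50 or more reads in both libraries, with a median log2 ratio of -4.22. Cd3e, a chain of the T cell receptor complex, had 153 reads against 1117 (2.81 and 52.9 CPM, -4.23). Foxp3, which defines regulatory T cells, had 67 and 297 reads (-3.50), the smallest difference of the list. Of 91 T cell receptor segments 89 were called lower and none higher, but 60 of the 91 had 3 reads or fewer in 1 library and only 2 had 50 or more in both, so that nearly all entered through the library in which they were high. The median of -4.64 was -3.95 with the 24 segments that had no read in 1 library set at their bound.

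All 10 B cell genes were also lower, with a median of -3.95. Cd22, an inhibitory receptor with the most reads of the list, had 20.6 and 520 CPM (-4.65). Ms4a1, which encodes Cd20, had 13.7 and 108 CPM (-2.98) and was the least different. Of 120 immunoglobulin segments 63 were called lower and 1 higher, with a median of -2.10. Of the 120, 21 had 3 reads or fewer in 1 library, so that these entered through the library in which they were high. Only 18 had 50 or more reads in both libraries, of which 7 were called lower (median -1.57). Over the 214 segments tested in sham the median was -4.04. The plasma cell list differed less than the B cell list, with a median of -0.82 and 1 of 6 genes tested called lower. Over all tested genes 12% were called lower. Jchain, the joining chain of secreted IgA and IgM, had 14.4 and 15.1 CPM (-0.07, or 0.49 with total counts only). Mzb1, a chaperone for antibody, had 41 and 128 reads (-2.99).

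NK cell genes were lower for 10 of 10 (median -3.66), but only 4 of them had 50 or more reads in both libraries. Nkg7, a protein of cytotoxic granules, had 1.36 and 40.0 CPM (-4.87). Of 8 genes of group 2 innate lymphoid cells 4 were called lower (median -1.32). Il7r, the interleukin-7 receptor that T cells share, had a log2 ratio of -3.65, whereas Gata3, their transcription factor, had 1528 and 677 reads (-0.19) and Rora had 1.19. Ptprc, the Cd45 of all leukocytes, had 173 CPM in Lamp1-enriched, 1270 CPM in Lamp1-depleted and 866 CPM in unsorted BLM cells (-2.87).

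**Figure D4:**
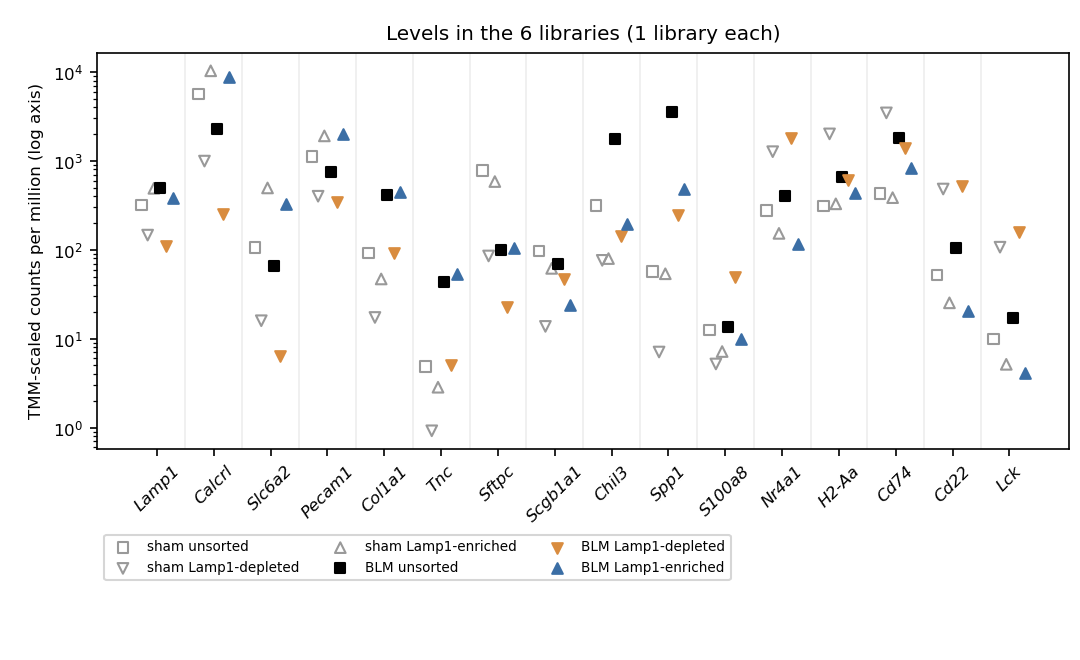
Levels of 16 genes in the 6 libraries, in TMM-scaled CPM on a log axis, with filled symbols for BLM and open symbols for sham and 1 point per library. Calcrl at 8789 and 251 and Lck at 4.11 and 160 separate the BLM fractions in opposite directions, and Chil3 and Spp1 are far higher in unsorted BLM cells than in either fraction.

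Macrophage genes hardly separated the fractions. None of 12 alveolar macrophage genes tested was called, with a median of 0.51 in BLM and -0.26 in sham over the same 12 genes. Chil3, the chitinase-like protein with the most reads of the list, had 196 CPM in Lamp1-enriched and 141 CPM in Lamp1-depleted cells (0.47, 0.41 to 0.53). Itgax, which encodes Cd11c, had 88.7 and 99.5 CPM (-0.17), and Siglecf, the lectin that marks resident alveolar macrophages, had 228 and 74 reads (0.26, -0.13 to 0.65). Unsorted cells had more than 2 times the level of either fraction for all 12 genes, with 1746 CPM for Chil3 and 802 CPM for Itgax.

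The scar-associated macrophage list had 1 of 10 genes called higher, the tetraspanin Cd9 (191 and 39.6 CPM, 2.27), which endothelium and platelets also carry. Spp1, osteopontin, had 485 and 248 CPM (0.97) and 3500 CPM in unsorted cells. Fn1, fibronectin, had 768 and 377 CPM (1.03), and Mmp12, the macrophage elastase, had 50.9 and 22.7 CPM (1.17). The list's median was 0.69, and Apoe at -0.61 was its lowest member. Unsorted cells exceeded both fractions by more than 2 times for 8 of the 10.

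Of 15 monocyte and interstitial macrophage genes 2 were called lower and 1 higher, near the 12% called lower over all tested genes, and the median was -0.74. Ly6c2, the Ly6C of classical monocytes, had 3.06 and 19.0 CPM (-2.63), and F13a1, coagulation factor XIII, had 10.1 and 48.1 CPM (-2.25). Cd14, a coreceptor for lipopolysaccharide, had 49.7 and 175 CPM (-1.81). C1qa, a complement gene of interstitial macrophages, had 17.1 and 11.6 CPM (0.56). Folr2, a folate receptor of resident macrophages, was called on 15 reads against 1 (2.25, -0.16 to 7.93). In unsorted cells 11 of the 15 genes were more than 2 times above both fractions.

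Neutrophil genes were on the Lamp1-depleted side in BLM. Of 10 genes 6 were called lower, all with 50 or more reads in both libraries. The median was -2.10, and -0.51 over the 9 genes tested in sham. S100a8, a calcium-binding protein of neutrophil cytosol, had 9.89 CPM in Lamp1-enriched and 49.9 CPM in Lamp1-depleted BLM cells (-2.33, -2.49 to -2.19), against 7.17 and 5.20 CPM in sham (0.46). Csf3r, the receptor for granulocyte colony-stimulating factor, had the most reads of the list, at 26.7 and 173 CPM (-2.69, and -1.48 in sham). Retnlg had 7.14 and 48.2 CPM (-2.75). Ly6g, the surface marker of mouse neutrophils, had 11 and 3 reads.

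Dendritic cell lists held members on both sides. Of 8 genes of conventional dendritic cells 1, 5 were called lower and 1 higher (median -2.27). Wdfy4, needed for cross-presentation, had 46.0 and 633 CPM (-3.78) and Irf8, their transcription factor, 17.5 and 132 CPM (-2.92), both of which B cells also express. Clec9a, the receptor for dead cells, went against the list with 82.4 and 9.66 CPM (3.09, 2.89 to 3.30), and Xcr1, the chemokine receptor of these cells, had 93 and 22 reads (0.71). Clec9a was on the Lamp1-enriched side in sham too (2.62).

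Of 6 genes of conventional dendritic cells 2, 3 were called lower (median -1.32), with Irf4 at 12.9 and 175 CPM (-3.76) and Mgl2 at 0.52. In mature dendritic cells Ccr7, the receptor for homing to lymph nodes that T and B cells share, was the only one of 6 called (13.3 and 168 CPM, -3.65), while Fscn1, an actin-bundling protein, had 1.49. The median of 0.36 became -0.02 with the enriched library thinned. Of 5 plasmacytoid genes Siglech was lower on 14 and 34 reads (-2.59), and Tcf4, which endothelium also uses, was higher at 812 and 173 CPM (2.23). Only Gata2 and Cpa3 of 9 mast cell and basophil genes had 10 reads. Gata2, a factor of endothelium as well, had 213 and 24.7 CPM (3.11), while Cpa3, a mast cell protease, had 17 reads and none, and Mcpt8 and Tpsb2 had no read in either BLM library.

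MHC class II genes were all below 0 in BLM, except H2-Aa with total counts only. The 10 genes had a median of -1.04 in BLM and of -2.70 in sham. H2-Aa, a chain of the peptide-binding molecule, had 436 and 617 CPM in BLM (-0.50, -0.53 to -0.47, or 0.06 with total counts only), and 329 and 2010 CPM in sham (-2.61). Cd74, its chaperone, had 832 and 1396 CPM in BLM (-0.75) and 386 and 3462 CPM in sham (-3.17). The 3 genes called lower in BLM were H2-Oa (-4.63), H2-Ob (-3.97) and H2-DMb2 (-3.61), of which H2-Oa and H2-Ob form the H2-O modifier found mainly in B cells. Their sham ratios were -3.81, -4.10 and -4.35. The class I light chain B2m had 2020 and 395 CPM in BLM (2.36) and 2790 and 1840 CPM in sham (0.60).

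Hemoglobin and other erythroid genes were low, with none of 5 tested called and a median of -0.84. Hbb-bs had 732 and 279 reads (0.02).

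Genes tied to senescence, which the study asks about, gave both directions. Of 9 cell cycle inhibitors and lamina genes 2 were called higher, near the 19.2% called higher over all tested genes. They were Cdkn2b (p15) on 190 and 10 reads (2.85, 1.97 to 3.96) and Cdkn1c (p57) on 485 and 28 reads (2.73). Neither had 50 or more reads in both libraries. The list's median was 0.67, and -0.17 over the 6 genes with 50 or more reads in both. Rb1, the retinoblastoma protein, had 285 and 112 CPM (1.35). Cdkn1a, which encodes p21, had 113 and 65.7 CPM (0.79, 0.70 to 0.87). Cdkn2a, which encodes p16, had 33 and 8 reads in BLM, a log2 ratio of 0.66. Its interval ran from -0.47 to 2.00, so that a BLM difference was not detectable at this depth. In sham Cdkn2a had 28 and 6 reads (2.12, 0.91 to 3.77). Lmnb1, the lamin lost in senescent cells, had 27.6 and 71.4 CPM (-1.37, -1.48 to -1.27). Cdkn1b, the p27 of resting lymphocytes and other quiescent cells, had a log2 ratio of -1.17.

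Of 16 p53 targets 2 were called higher, a share below the 19.2% of all tested genes, and the median was 0.52. They were Eda2r (2.83) and Phlda3 (71.2 and 10.8 CPM, 2.72), and 1 of the 2 had 50 or more reads in both libraries. Plk2, a kinase that p53 induces, had 298 and 83.3 CPM (1.84). Mdm2, which degrades p53, had 82.6 and 230 CPM (-1.48). In a list of 34 secreted factors tested, 10 were called higher and 4 lower (median 0.86), against 19.2% and 12% of all tested genes. Of the 10 higher 7 had 50 or more reads in both libraries, and of the 4 lower 2 did. Cxcl12, Vegfc and Igfbp7 (266 and 44.4 CPM, 2.59) were among those higher. The 4 lower were the chemokine Ccl5 (0.459 and 8.52 CPM, -4.18), Csf2 (-2.55), Ccl4 (-2.43) and Il1b (101 and 455 CPM, -2.18), which leukocytes are known to make. Il6 had 213 and 74 reads (0.16).

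Of 20 genes of cell division 17 had ratios above 0 in BLM, and 3 were called higher, a share below the 19.2% of all tested genes. These were Ccna2 (2.22), Ccnb1 (2.21) and Tyms (2.10). The median was 0.84 in BLM against -0.23 in sham. Top2a, a topoisomerase of dividing cells, had 2322 and 316 reads (1.51, 1.34 to 1.68) in BLM, and 302 and 414 reads in sham (-0.47). Mki67 had 58.6 and 43.1 CPM (0.44), and Mcm5, a replication licensing factor, -0.78.

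Interferon-stimulated genes had 3 of 16 called higher, near the 19.2% called higher over all tested genes. Of these 3, 2 had 50 or more reads in both libraries. The median was 1.11, with Ifi44 at 21.3 and 0.852 CPM (4.62, 3.98 to 5.40) and Ifit1 at 23.4 and 2.65 CPM (3.14). Mx1 was on the other side at -1.79.

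Immediate early genes, which the dissociation of tissue is known to induce, did not move together. Nr4a1, an orphan nuclear receptor that antigen receptors induce in lymphocytes, had 116 CPM in Lamp1-enriched and 1790 CPM in Lamp1-depleted cells (-3.95, -3.99 to -3.91). Jun had 508 and 132 CPM (1.94), Egr1 had 1.54 and Fos had 389 and 651 CPM (-0.74). Of 18 genes, heat shock genes included, 2 were called higher, Hspb1 (3.06) and Ier3 (2.28), and 1 lower, Nr4a1. Over all tested genes 19.2% were called higher and 12% lower. The median of -0.11 was 0.45 with total counts only. Hspa8, the constitutive Hsc70, had 932 and 364 CPM (1.36). Hspa1a, an inducible Hsp70, had 185 and 141 CPM in BLM (0.39), and 119 and 18.4 CPM in sham (2.69).

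Glycolytic and hypoxia genes had a median of -0.07 over 16 genes, which was 0.49 with total counts only. Gapdh, the list's gene with the most reads, had 294 and 206 CPM (0.52). Of the 16, 2 were called higher, a share below the 19.2% of all tested genes. The 2 were Bnip3, a mitophagy receptor (89.3 and 7.72 CPM, 3.53), and Ankrd37 (22.3 and 3.69 CPM, 2.59), both induced by hypoxia-inducible factors. Ankrd37 had 123 and 146 reads in sham (-0.26). Hk2, a hexokinase, was at -1.78.

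Ratios against a library with 3 reads or fewer were kept apart. Over all tested genes 4196 were called higher and 2617 lower, or 5775 and 1880 with total counts only. Of the 4196, 1746 had 3 reads or fewer in Lamp1-depleted cells, and of the 2617, 559 had 3 reads or fewer in Lamp1-enriched cells. In sham the corresponding numbers of tested genes were 816 and 807, against 2245 and 559 in BLM. The BLM Lamp1-depleted library was also the shallowest of the 6. With the Lamp1-enriched library thinned to its depth and Gm26917 left out, 2988 genes were called higher and 2841 lower. Leaving Gm26917 out without thinning gave 3885 and 2820. Ranked by reads in the other library, the genes near the floor in Lamp1-depleted cells were Gm10400 (606 and 3 reads), Maob (604 and 2), Pcdhb4 (585 and 2), Ccdc152 (549 and 3), Pcdhb20 (536 and 0), Gm27028 (444 and 1), Gm14410 (402 and 3) and Gm37626 (369 and 2). Pcdhb20, a clustered protocadherin, was at least 69.2-fold higher. Maob, monoamine oxidase B, had a log2 ratio of 6.68 (5.01 to 9.92), and in sham it had 13.5 and 1.12 CPM (3.58).

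On the other side stood Gm25747 (1 and 169 reads), Kcng1, a potassium channel subunit (3 and 160 reads, log2 ratio -6.80, -9.40 to -5.53), and Gm37169, Mir7212, Gm14834, Gm39323, 4930439D14Rik and Gm16334 with 2, 3, 2, 2, 1 and 3 reads against 100, 71, 70, 67, 65 and 63. Most of these are noncoding models, and without a stated strand setting a read from an overlapping gene cannot be told apart. Il17a, the cytokine of Th17 and gamma delta T cells, chosen after its value was seen, had no read in Lamp1-enriched and 50 in Lamp1-depleted cells, at least 43.0-fold lower.

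The reads of the pair were composed differently. Protein-coding genes took 92.8% of the reads in BLM Lamp1-enriched and 52.2% in BLM Lamp1-depleted cells, or 94.3% and 84.7% with Gm26917 left out. The 5 largest shares in Lamp1-enriched cells were mt-Co1 (2.47%), Rn7sk (2.03%), Gm26917, Malat1 (1.07%) and Calcrl, and in Lamp1-depleted cells Gm26917, mt-Co1 (4.63%), Malat1 (2.06%), Rpph1 (1.93%) and Rmrp (1.32%). Rn7sk, Rpph1 and Rmrp are made without a poly(A) tail, and together they took 2.73% and 4.08% of the reads, or 2.78% and 6.62% with Gm26917 left out. Gm26917, on chromosome 17 from 39843013 to 39846341, had a log2 ratio of -5.21 in BLM and -1.81 in sham. Its part in the ratios of other genes was measured only through the scaling with it left out.

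Mitochondrially encoded genes were all below 0 with TMM scaling, the highest at -0.42. The 13 genes had a median of -0.91 in BLM and of 0.06 in sham, and mt-Co1, a subunit of cytochrome c oxidase, had 24017 and 66225 CPM in BLM (-1.46). With total counts only every one of these ratios is higher by 0.56, so that not all of them stay below 0. Cytosolic ribosomal protein genes had a median of -0.01 over 80 genes in BLM, which was 0.55 with total counts only, and of -1.01 over the 81 tested in sham.

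The ratios also moved with base composition. Over 10691 protein-coding genes with 50 or more reads in all 4 sorted libraries, split into 5 bins of equal size by exonic GC content, the median BLM log2 ratio was 0.58, 0.33, 0.22, 0.03 and -0.07 from the lowest to the highest bin. In sham the medians were -0.12, -0.02, 0.05, 0.07 and 0.14 over the same genes. Split by exonic length, the BLM medians stayed between 0.19 and 0.25. The part of GC content in the ratios of single genes was not tested. Genes at 0 were also more frequent in the BLM pair. Among genes at 2 to 20 CPM in Lamp1-enriched cells, 25 of 6654 had no read in Lamp1-depleted BLM cells (0.376%), and 0 of 6447 in sham.

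**Figure D5:**
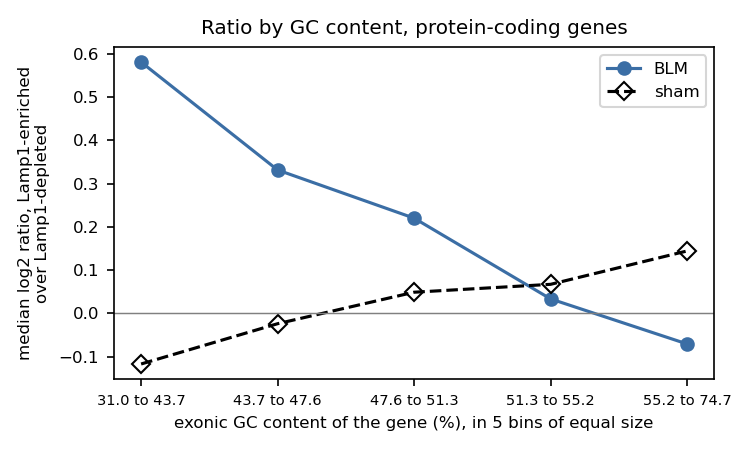
Median log2 ratio of Lamp1-enriched over Lamp1-depleted cells in 5 bins of exonic GC content (percent) for 10691 protein-coding genes, BLM as filled circles and sham as open diamonds. The BLM line falls from 0.58 to -0.07 while the sham line goes from -0.12 to 0.14.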

How the data were processed

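RNA of 6 sorted or unsorted mouse lung cell suspensions was sequenced, with 1 library per condition. The authors deposited raw read counts per gene, without normalization. The submitters' processing notes name Trimmomatic 0.36, STAR 2.5.2b, featureCounts from Subread 1.5.2, DESeq2 and the build GRCm38. The annotation release and strand setting are not given in the sources used here. The labels name polyA RNA.

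Libraries were matched to conditions by their labels. Of 49315 genes, 49056 were found by identifier in GENCODE M21, which gave biotype, position, exonic length and GC content. TMM factors came from edgeR 4.0.16 over all 6 libraries (1.03 for BLM Lamp1-enriched, 0.699 for BLM Lamp1-depleted). Log2 ratios used a prior count of 0.5 reads. Genes needed 10 reads in either library, genes with 50 reads in both are given apart, and 3 reads is the floor. Intervals are 95% Clopper-Pearson intervals of a gene's reads and cover counting error only, since reads are not independent molecules. No replicate existed, so no p-value was computed. The ratio and interval were tested on simulated data.

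The members, gene lists and comparisons were chosen with earlier results of these data known. Named genes are the mouse genes that the study names for lung cells, the list members with the most reads, the largest ratios or a direction against the median, the 15 largest ratios each way among protein-coding genes with 50 reads in both, the 8 genes near the floor with the most reads each way, and the 5 largest shares of reads. Others were named after their values were seen. Lists were written from general knowledge. Alternatives were DESeq2 1.42.0 size factors, total counts, Gm26917 left out, TMM over the BLM pair, a prior count of 2, other read minimums, thinning, protein-coding genes only and other fold rules. Results for some genes are not reported here.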

Additional observations from a re-analysis of the deposited data

Results flagged for a closer look

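Under every scaling tried, 4 gene lists had median log2 ratios of Lamp1-enriched over Lamp1-depleted cells with opposite signs in BLM and sham lung. Of the genes named in the report, Ccnb1 is given as the one with opposite signs and at least a 2-fold difference in both, and others named there, such as Scgb1a1, S100a8 and Top2a, had opposite signs with a smaller difference in BLM or in sham. Each pair of conditions is 1 library against 1 library, so the difference between BLM and sham was not tested.

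The median over all tested genes was 0.29 in BLM and -0.013 in sham, so that each list median is read against these values. The median over 40 lysosomal hydrolases was 0.47 in BLM and -0.16 in sham. Over 9 mesothelial genes it was 1.83 in BLM and -0.042 in sham, with no gene at 50 reads in both BLM libraries. The 12 alveolar macrophage genes tested in both had medians of 0.51 and -0.26. The 20 genes of cell division had medians of 0.84 and -0.23, and their member Ccnb1, a cyclin of mitosis, had log2 ratios of 2.21 on 278 and 23 reads in BLM and -1.43 on 38 and 102 reads in sham.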

How the results depend on the processing

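No paired analysis was possible because each condition has 1 library, and for the same reason no library could be left out. The median of genes with 50 reads in both libraries was -0.042 with DESeq2 size factors, -0.019 with Gm26917 left out of the totals and 0.67 with total counts only, and the median over all tested genes was 0.85 with total counts only. Total counts gave 2117 genes higher and 599 lower among those with 50 reads in both. Among all tested genes, a minimum of 1 read gave 6300 higher and 5773 lower, a minimum of 50 reads in either library 2794 and 1475, and protein-coding genes only 2738 and 1403. A rule of log2 ratio 1 gave 7493 higher and 4933 lower over all tested genes and 3124 and 2509 with 50 reads in both, and a rule of 3 gave 2322 and 1445, and 481 and 416. With the Lamp1-enriched library thinned to 18636423 reads outside Gm26917, the depth of the Lamp1-depleted library, 2988 genes were higher and 2841 lower. The thinned setting also left Gm26917 out, which without thinning gave 3885 higher and 2820 lower. Of 57 lists, 7 had a median that changed sign under at least 1 alternative: airway secretory, ciliated, immediate early, glycolysis and ribosomal genes with total counts only, lymphatic genes with total counts (0.43), with 50 reads in either library (1.89) and with thinning (0.59), glycolysis also with 50 reads in either (0.15), and mature dendritic cell genes with thinning (-0.02). Of the named genes, 10 changed sign: Itgax (0.39), Gata3 (0.37), Jchain (0.49), Itgb3 (0.31) and H2-Aa (0.06) with total counts only, and Psap (-0.07), Ctss (-0.08), Glb1 (-0.06), Epcam (-0.06) and Hbb-bs (-0.13) with DESeq2 size factors, and these last 5 also with Gm26917 left out and with thinning. At this depth 2245 tested genes had 3 reads or fewer in Lamp1-depleted cells, and counting alone makes their ratios imprecise.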
